A study of Mus musculus with 19 samples.

Results

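The S100 proteins are small calcium-binding proteins, and 8 of their genes were followed in mouse retinal microglia after laser injury: S100a1, S100a4, S100a6, S100a8, S100a9, S100a10, S100a11 and S100a13. The members were chosen by name, as the rows of the deposited expression table that carry these 8 symbols, out of 27299 genes in all and out of 13 genes of the S100 family with a row in the table. RNA-seq was performed on microglia sorted from the central retina as CD45lo CD11b+ CX3CR1+ Ly6C- Ly6G- cells by the methods, while the labels give the gate as CD45+. The 6 samples of the CNV d3 group came from mice taken on day 3 after 6 argon laser burns per eye, an injury that starts choroidal neovascularization (CNV), and the 6 control samples came from mice without laser treatment. All mice were 8 weeks old. The labels name the strain C57BL/6J and the methods name Cx3cr1GFP/+ mice for the RNA-seq, a line in which GFP replaces one copy of the fractalkine receptor gene, so that both groups may share this allele. No source gives the number of mice behind a sample, and p-values therefore measure the spread between these samples, which may be technical.

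Each S100 protein holds a pair of EF-hand motifs, which bind calcium, and most act as dimers that change shape with calcium and then grip other proteins. Inside the cell they bind annexins, the scaffold protein AHNAK, nonmuscle myosin heavy chains and p53. Some are also released: S100A8 and S100A9 form calprotectin, an abundant protein of neutrophils and monocytes that signals through TLR4 and RAGE, the receptor encoded by Ager. In myeloid cells S100A4, S100A6, S100A10 and S100A11 are known for roles in cell migration, in the membrane and in contact with the actin skeleton.

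All 8 members lie on chromosome 3 within 3.054 Mb (GRCm38, Gencode M21 gene models). From the first to the last, they are S100a1 (90511034 to 90514392, minus strand), S100a13 (90514435 to 90524581, plus), S100a4 (90603771 to 90606045, plus), S100a6 (90612882 to 90624181, plus), S100a8 (90668978 to 90670035, plus), S100a9 (90692632 to 90695721, minus), S100a11 (93520488 to 93526287, plus) and S100a10 (93555080 to 93564643, plus). S100a1 and S100a13 start back to back with 42 bases between them, while 2825 kb separate S100a9 from S100a11.

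The 300 bases around the start of S100a13 are shown because both this gene and S100a1 begin inside them, and both recur in the results. They are chr3:90514185-90514484 on the plus strand, from RefSeq with build GRCm38.p6, and capitals mark the 42 bases between the gene models.
S100a1 and S100a13 start region: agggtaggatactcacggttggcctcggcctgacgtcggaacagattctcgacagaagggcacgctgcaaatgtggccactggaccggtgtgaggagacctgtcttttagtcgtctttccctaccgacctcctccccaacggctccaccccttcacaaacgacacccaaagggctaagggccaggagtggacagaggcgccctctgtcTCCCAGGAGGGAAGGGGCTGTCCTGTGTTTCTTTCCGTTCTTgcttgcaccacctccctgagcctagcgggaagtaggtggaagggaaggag

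The promoter windows of S100a4 and S100a11 are shown because these genes rose at CNV d3 and hold matches to motifs searched. Each window runs from 250 bases before to 50 bases after the RefSeq start (GRCm38.p6), chr3:90603520-90603819 for S100a4 and chr3:93520246-93520545 for S100a11, both on the plus strand. Capitals mark the matches.
S100a4 promoter: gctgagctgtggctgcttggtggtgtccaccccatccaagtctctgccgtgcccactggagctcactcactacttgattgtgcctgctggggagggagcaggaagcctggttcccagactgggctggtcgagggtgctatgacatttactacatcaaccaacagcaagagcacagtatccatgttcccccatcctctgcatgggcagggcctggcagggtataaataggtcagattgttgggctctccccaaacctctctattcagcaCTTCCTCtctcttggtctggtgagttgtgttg
S100a11 promoter: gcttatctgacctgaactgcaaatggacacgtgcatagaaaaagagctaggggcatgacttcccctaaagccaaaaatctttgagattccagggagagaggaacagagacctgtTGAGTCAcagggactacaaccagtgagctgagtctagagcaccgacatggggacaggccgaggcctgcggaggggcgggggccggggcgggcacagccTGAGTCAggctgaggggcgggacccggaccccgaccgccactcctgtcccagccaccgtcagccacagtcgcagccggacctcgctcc

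A window was found for 7 of the 8 members, all but S100a10. Both strands of each window were searched for 3 motifs of factors active in myeloid cells, and no matches overlapped each other in a member's window. The AP-1 motif TGANTCA occurred in 7.81% of 32851 windows of this length, and S100a11 held 2 copies of it, at -136 and -38 from the start. The PU.1 motif GAGGAAG occurred in 13.6% of windows, and S100a4 held 1 match at +18 from the start, while S100a8 held 1 match at -171. The C/EBP motif TTGCNNAA occurred in 10.8% of windows and matched S100a9 once, at -236. S100a1, S100a6 and S100a13 held no match to any of the 3. A match describes letters in a window and is not a measured binding site.

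Values are normalized counts, meaning reads of a gene divided by a size factor of the sample. Control samples held 10963178 to 22335233 reads in genes and CNV d3 samples 23532260 to 29523018, so 1 read was worth 0.739 to 1.99 normalized counts. Changes are log2 fold changes of CNV d3 over control on the log2(normalized count + 1) scale, with adjusted p-values from limma over all 27299 genes, and a gene was called with an absolute change above 1.5 and an adjusted p under 0.05. The labels split each control sample, and of the CNV d3 samples replicate 4 alone, into 2 parts, while the methods describe files from a pair of flow cells, later merged, for every sample. By the labels the number of parts followed the groups, and its part in the differences was not tested beyond the values without that replicate. The sorted cells carried the defining genes of microglia at high levels. The sum of 12 microglia markers was 1.29e+06 to 1.47e+06 normalized counts in control and 720047 to 1.07e+06 in CNV d3 samples, and 1 of the 12, P2ry12, was called lower.

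Of the 8 members, 3 were called higher at CNV d3 by limma and 0 lower, with 4 higher and 0 lower at an unadjusted p under 0.05, a threshold that 16.3% and 8.9% of all genes passed in these directions. The genes that rose were S100a6, S100a4 and S100a11. Over all genes, 3.91% were called higher and 1.07% lower by the same rule. The median log2 fold change of the 8 members was 0.53, against 0.15 over all genes. With no demand on the size of the change, S100a1 joined the other three, so that 4 of 8 members were higher with an adjusted p under 0.05, against 8.29% of all genes. None of the 8 had groups that did not overlap, a pattern found in 4.64% of all genes with CNV d3 higher and in 2.83% with CNV d3 lower. By edgeR 2 of 8 members were called higher against 3.07% of genes, and by DESeq2 3 of 8 against 5.28%, with 0 lower by either.

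**Figure D1:**
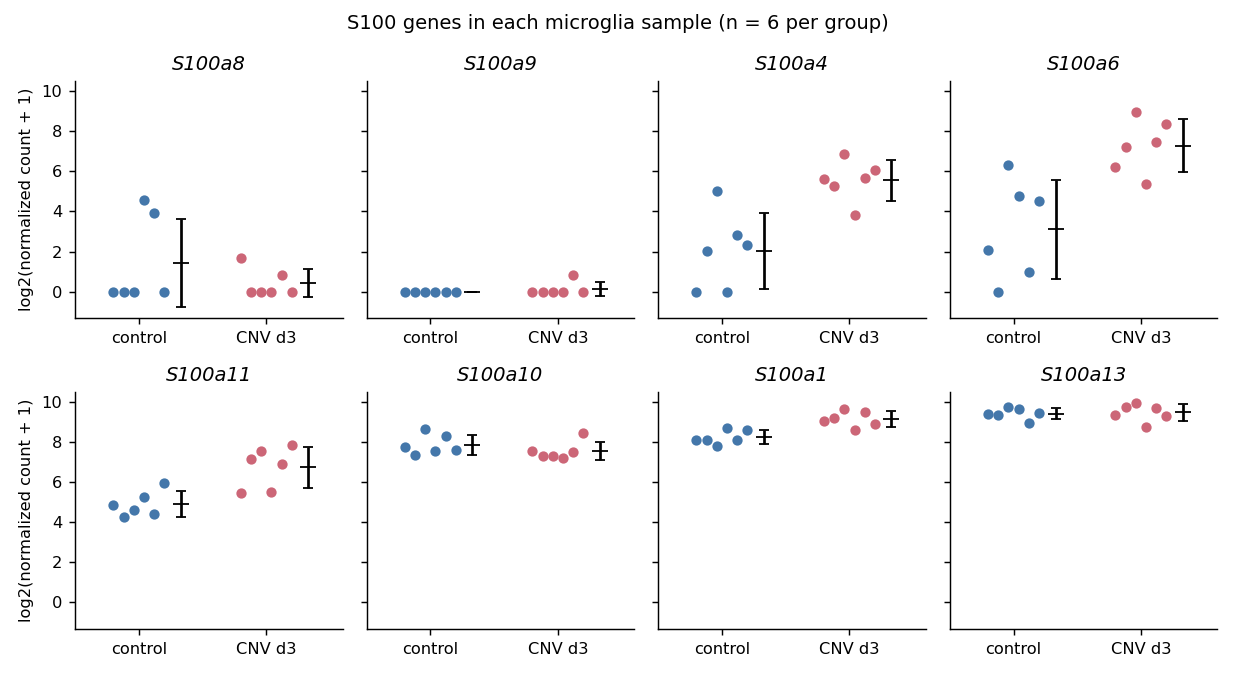
Each panel plots 1 S100 gene, with log2(normalized count + 1) on the vertical axis, 1 point for each of 6 control and 6 CNV d3 samples, and the mean ± SD as a bar. S100a4, S100a6 and S100a11 sit higher at CNV d3, S100a10 and S100a13 cover the same range in both groups, and S100a9 is at 0 in all but 1 sample.

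The calprotectin genes S100a8 and S100a9 were close to undetected in both groups. S100a8 was at 0 in control replicates 1, 2, 3 and 6 and measured 22.3 and 14.1 normalized counts in control replicates 4 and 5. In CNV d3 samples it was 2.22 in replicate 1, 0.801 in replicate 5 and 0 in the other four. The only samples with more than 3 reads of S100a8 were therefore a pair of control samples, with 36 control reads in all against 4 CNV d3 reads. Its log2 fold change was -0.99 ± 0.83 (SE, n = 6 per group), with an adjusted p of 0.523 by limma. This size depends on the pseudocount and the tool, being -0.61 with a pseudocount of 5, -3.28 by edgeR (adjusted p = 0.184) and -3.58 by DESeq2 (adjusted p = 0.313), none of which passed. S100a9 had 0 reads in every control sample and 1 read, in CNV d3 replicate 5. A count of 0 allows up to 3 reads per sample, so no fold change is given for S100a9.

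Neutrophil markers were measured beside them. Of the 14 neutrophil markers, 10 had a row, 2 were called higher (Lcn2 and Mmp9) and 7 were at 0 in every control sample. Their sum was 9029 to 11562 normalized counts in control and 4987 to 10771 in CNV d3 samples, nearly all of it Csf3r, the receptor of granulocyte colony-stimulating factor, which microglia also express. Csf3r measured 10220 ± 910.1 in control and 8601 ± 2111 at CNV d3. Without Csf3r the sum of the other 9 markers was 0 to 4.06 in control and 3.34 to 60.9 in CNV d3 samples. At CNV d3 Lcn2 and Mmp9 measured 9.74 ± 7.99 and 14.7 ± 15.2, both from 0 in every control sample. The myeloperoxidase gene Mpo and the granule gene Ltf measured 0.412 ± 0.711 and 0.400 ± 0.981 at CNV d3. Of the 10 markers, 3 were higher and 0 lower at an unadjusted limma p under 0.05, against 16.3% and 8.9% of all genes. The call of Mmp9 held in 2 of the 12 fits that left out 1 sample, and that of Lcn2 in all 12.

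S100a6, which encodes calcyclin, a protein linked to proliferation and to the ubiquitin ligase adaptor CACYBP, showed the largest change among the 3 genes called by limma. In control replicates 1 to 6 it measured 3.22, 0, 78.8, 26.4, 1.00 and 21.8 normalized counts. In CNV d3 replicates 1 to 6 it measured 73.9, 146, 497, 40.7, 175 and 331. Only control replicate 3 lay above the 2 lowest CNV d3 samples, and all other control samples were below every CNV d3 sample. The mean went from 21.9 ± 30.1 to 210 ± 173 (SD, n = 6 each), and the log2 fold change was 4.15 ± 1.02 (SE), a 17.8-fold change with a 95% interval of 3.93 to 80.4. The adjusted p was 0.0137 by limma, and the exact permutation p over all labellings of the 12 samples was 0.00649 (two-sided, unadjusted). By edgeR the change was 3.27 (adjusted p = 0.0291) and by DESeq2 3.27 (adjusted p = 0.00303). The call was lost when CNV d3 replicate 2, 3, 5 or 6 was left out, with adjusted p of 0.0504, 0.0610, 0.0512 and 0.0615.

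S100a4, which encodes metastasin or fibroblast-specific protein, a binder of nonmuscle myosin that is also found in monocytes and macrophages, rose as well. Its control replicates 1 to 6 measured 0, 3.04, 31.5, 0, 6.02 and 3.97 normalized counts, resting on 39 reads in all. Its CNV d3 replicates 1 to 6 measured 48.0, 36.8, 115, 12.98, 50.5 and 66.5, resting on 395 reads. Control replicate 3 was again the high control, above CNV d3 replicate 4 only. The mean went from 7.43 ± 12.0 to 54.9 ± 34.2, and the log2 fold change was 3.52 ± 0.92 (SE), with a 95% interval of 1.56 to 5.47. The adjusted p was 0.0190 by limma and the exact permutation p was 0.00433. By edgeR the change was 2.87 with an adjusted p of 0.0877, so that this tool did not call it, while DESeq2 gave 2.88 with an adjusted p of 0.0109. Without CNV d3 replicate 3 the adjusted p was 0.0511 by limma and the call was lost. In Gencode M21, 302 of its exon bases, or 51.7%, also belong to Gm42674 on the same strand, and Gm42674 has no row in the table. The authors counted with Gencode M25, in which this overlap was not checked, and their counting left out reads shared between genes, so the level of S100a4 is uncertain.

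S100a11, which encodes calgizzarin, a partner of annexin A1 at membranes, was the third gene called. In control replicates 1 to 6 it measured 27.9, 18.2, 23.6, 37.6, 20.1 and 61.6 normalized counts. In CNV d3 replicates 1 to 6 it measured 42.8, 142, 187, 44.1, 118 and 230. CNV d3 replicates 1 and 4 lay below control replicate 6, and the other four CNV d3 samples were above all control samples. The mean went from 31.5 ± 16.3 to 127 ± 75.5, and the log2 fold change was 1.84 ± 0.52 (SE), a 3.58-fold change with a 95% interval of 1.66 to 7.70. The adjusted p was 0.0288 by limma and the exact permutation p was 0.00866. The adjusted p rose to between 0.0539 and 0.0690, and the call was lost, without control replicate 2 or 5 or CNV d3 replicate 2, 3, 5 or 6.

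Levels of the genes that rose varied among the CNV d3 samples. The highest CNV d3 value was 12.2 times the lowest for S100a6, 8.82 times for S100a4 and 5.37 times for S100a11. For S100a1, S100a10 and S100a13 the same ratio was 2.12, 2.37 and 2.33. Of the 6 members with reads in every CNV d3 sample, replicate 3 had the highest value for 4 and replicate 4 had the lowest for 5, all but S100a11. Replicate 4 is the one CNV d3 sample that the labels list in 2 parts, and without it the changes were 4.53 for S100a6, 3.87 for S100a4 and 2.09 for S100a11, all 3 still called. With reads thinned to the depth of the shallowest sample, all 3 were also called, with changes of 4.25, 3.48 and 1.96.

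Several monocyte markers were also higher at CNV d3. Of 14 such markers, 4 were called higher, namely Ccr2, Plac8, Itgal and Ly6c2, and 0 lower, against 3.91% and 1.07% of all genes. At an unadjusted limma p under 0.05, 12 were higher and 0 lower, against 16.3% and 8.9% of all genes. The median log2 fold change of the 14 was 2.39, against 0.15 over all genes. The call held in all 12 fits that left out 1 sample for 3 of the called markers and in 7 for Plac8. The chemokine receptor gene Ccr2 measured 1.07, 15.2, 0, 92.4, 1.00 and 95.3 normalized counts in control replicates 1 to 6 and 120, 278, 1162, 163, 910 and 1351 in CNV d3 replicates 1 to 6. Ly6c2, which encodes the Ly6C antigen that the gate excluded, was at 0 in all control samples and 1.73 to 25.1 in CNV d3 samples. The summed markers were 11766 to 17941 in control and 28053 to 37924 in CNV d3 samples, nearly all of it Lyz2, and without Lyz2 the other 13 summed to 731 to 1831 and 2593 to 5770. In the CNV d3 samples S100a4 and the mean log2 level of the monocyte markers gave r = 0.86 (exact permutation p = 0.0333, adjusted p = 0.183) and rho = 0.89 (exact permutation p = 0.0333, adjusted p = 0.183), and r was 0.78 without the 2 samples farthest from the median. In control samples the same pair gave r = -0.08 (exact permutation p = 0.861, adjusted p = 0.900) and rho = -0.06 (exact permutation p = 0.933, adjusted p = 1). Without the 2 control samples farthest from the median r was -0.86, so the control value is not stable. The relation of S100a6 or S100a11 to the monocyte markers within a group was not computed. The part of other cells in the S100 changes was not tested, and in bulk samples fewer cells of a type and less RNA per cell cannot be told apart.

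Markers of other retinal cells were set beside the share of all genes called by limma, 3.91% higher and 1.07% lower. Of 8 Mueller glia and astrocyte markers, 1 was called higher and 0 lower by limma. It was Dkk3, at 2.69 ± 4.23 in control and 38.0 ± 35.6 at CNV d3, a call edgeR did not make (adjusted p = 0.0598). At an unadjusted limma p under 0.05, 2 of the 8 were higher and 2 lower, against 16.3% and 8.9% of all genes. The 8 photoreceptor markers summed to 858 to 7422 in control and 663 to 13343 in CNV d3 samples. None of them passed the limma call, with 1 higher and 0 lower at an unadjusted p under 0.05, while edgeR and DESeq2 called 1 higher. Among 7 endothelial, 5 fibroblast and pericyte and 5 retinal pigment epithelium markers measured, none was called by limma, and at an unadjusted p under 0.05 3 endothelial markers were higher, 1 was lower and 0 of the other two lists passed. By edgeR none of these was called, and DESeq2 called 1 endothelial marker lower. By limma the endothelial gene Pecam1 changed by -1.46 (adjusted p = 0.0236) and Kdr by 0.98 (adjusted p = 0.0452), each by less than the threshold. The fibroblast and pericyte sums did not exceed 20.1 normalized counts in any sample, the collagen gene Col1a1 was at 1.54 ± 3.12 at CNV d3, and the pigment epithelium sums were 2.15 to 263.9 in control and 61.5 to 263.7 in CNV d3 samples. The endothelial sums were 500.3 to 989.8 and 463 to 970.2. The Mueller glia and astrocyte sums were 6884 to 9890 and 5260 to 7655, nearly all of them Glul and Slc1a3. These genes changed by -0.27 (adjusted p = 0.148 by limma) and -0.67 (adjusted p = 0.0208). All other markers of this list had changes above 0, of which only that of Dkk3 had an adjusted p under 0.05. The median change of the 8 was 1.03, against 0.15 over all genes.

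S100a1, a calcium sensor best known from heart muscle, was abundant in both groups and higher at CNV d3 by less than the threshold. It measured 273, 269, 217, 411, 274 and 383 normalized counts in control replicates 1 to 6 and 524, 572, 803, 378, 713 and 470 in CNV d3 replicates 1 to 6. All CNV d3 samples but replicate 4 were above all control samples. The mean went from 305 ± 75.3 to 577 ± 157, and the log2 fold change was 0.91 ± 0.22 (SE), a 1.88-fold change with a 95% interval of 1.36 to 2.59. The adjusted p was 0.0116 by limma and the exact permutation p was 0.00649. Over the 12 fits that left out 1 sample, the change stayed between 0.80 and 1.02 with an adjusted p of at most 0.0333.

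S100a13, which binds fibroblast growth factor 1 and takes part in its release, had the highest level per length in both groups and no detectable change. It measured a mean of 683 ± 125 normalized counts in control and 728 ± 201 in CNV d3 samples. The range was 485 to 847 in control and 426 to 992 at CNV d3, so that the groups overlapped over the whole control range. The log2 fold change was 0.06 ± 0.20 (SE), with an adjusted p of 0.847 by limma and a 95% interval of -0.37 to 0.49.

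S100a10 encodes p11, the light chain that pairs with annexin A2 into a tetramer at the plasma membrane and helps to bind plasminogen there. It measured 215, 164, 403, 188, 307 and 189 normalized counts in control replicates 1 to 6 and 188, 156, 157, 145, 178 and 344 in CNV d3 replicates 1 to 6. CNV d3 replicate 6 stood above the other five, which lay between 145 and 188, while the control samples spread from 164 to 403. The mean was 244 ± 92.5 in control and 195 ± 74.8 at CNV d3, and the log2 fold change was -0.32 ± 0.28 (SE), with an adjusted p of 0.537 by limma and a 95% interval of -0.92 to 0.28.

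**Figure D2:**
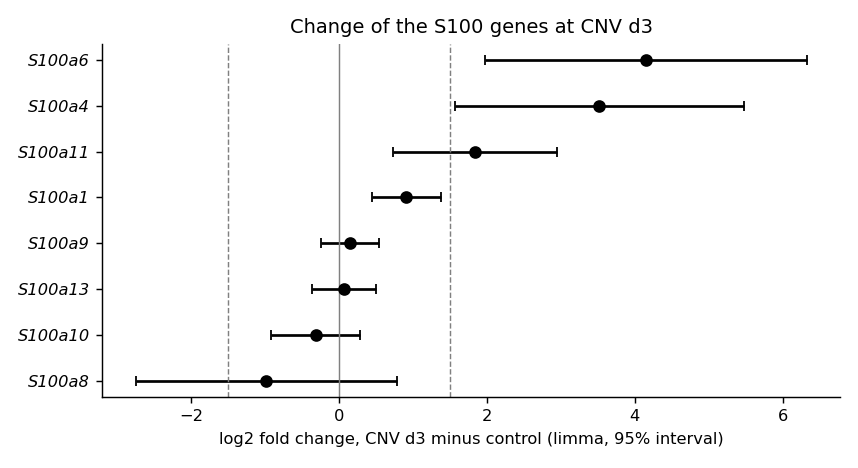
The log2 fold change of each S100 gene at CNV d3 over control is drawn with its 95% interval from limma, and dashed lines mark ±1.5. S100a6, S100a4 and S100a11 lie past 1.5, S100a1 lies at 0.91 with an interval above 0, and the intervals of the other four include 0.

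In the order of the changes the members ran S100a6, S100a4, S100a11, S100a1, S100a9, S100a13, S100a10 and S100a8. Neighbours in this order were compared by their log2 ratio within each sample, with an exact permutation test between groups and adjustment over the 7 pairs. None of the 7 pairs differed, and the pairs with S100a9 set the other gene against a gene with 1 read in all. The ratio of S100a11 to S100a1 came to an adjusted p of 0.136 (exact permutation p = 0.0390), with a mean log2 ratio of -3.32 in control and -2.39 at CNV d3. The changes of S100a6 and S100a4, and those of S100a4 and S100a11, were therefore not told apart at this spread.

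Levels were set against each other per kilobase of merged exon. In control samples the order was S100a13 at 955 ± 175 normalized counts per kb, S100a1 at 439 ± 108, S100a10 at 202 ± 76.3, S100a11 at 61.6 ± 31.8, S100a6 at 16.01 ± 22.01, S100a4 at 12.7 ± 20.6, S100a8 at 8.74 ± 14.1 and S100a9 at 0. At CNV d3 it was S100a13 at 1018 ± 281, S100a1 at 831 ± 226, S100a11 at 249 ± 148, S100a10 at 161 ± 61.7, S100a6 at 154 ± 127, S100a4 at 94.0 ± 58.5, S100a8 at 0.725 ± 1.29 and S100a9 at 0.256 ± 0.626. By mean level per kb, S100a13 stood above 96.6% of genes in both groups, while S100a6 went from above 58.3% to above 81.5% and S100a4 from above 56.1% to above 75.8%. With 6 samples the exact sign-flip permutation test cannot go below p = 0.03125 for a pair, and after adjustment over the 7 pairs of a group no neighbours differed, the lowest adjusted p being 0.109 in control and 0.0729 at CNV d3. S100a13 was above S100a1 in 6 of 6 samples of each group, and S100a10 was above S100a11 in 6 of 6 control samples. At CNV d3 the order of S100a10 and S100a11 turned with the length used, since the mean log2 level of S100a11 over S100a10 was 0.43 per kb of merged exon and -0.39 per kb of the longest transcript.

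**Figure D3:**
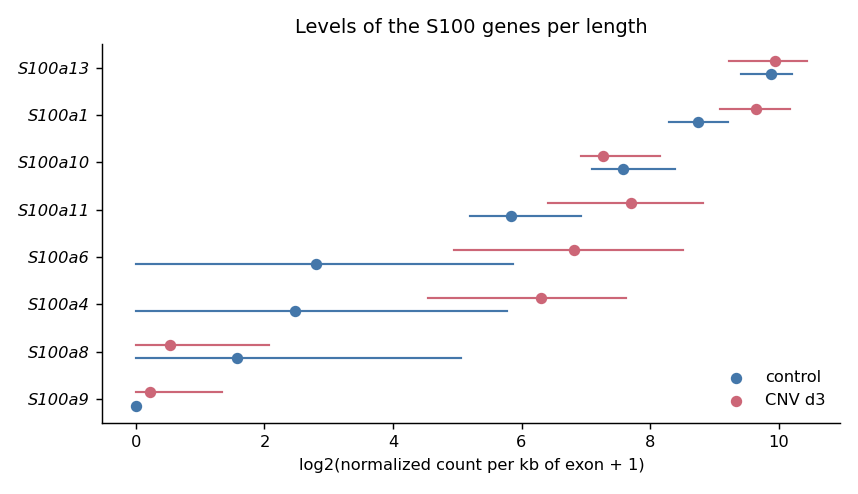
Points give the mean of log2(normalized count per kb of exon + 1) for each S100 gene in the 6 control and 6 CNV d3 samples, and lines run from the lowest to the highest sample. S100a13 and S100a1 lead in both groups, and the mean of S100a11 lies above that of S100a10 at CNV d3 with merged exons as the length, and below it with the longest transcript.

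The ratios of members that follow each other on the chromosome are given as a description with no test, since they were chosen after the values were seen and partly repeat the changes above. They cover 4 pairs that hold at least 100 reads in each gene, and other S100 genes lie between S100a13 and S100a4. The log2 ratio of S100a1 to S100a13, the back-to-back pair shown above, was -1.96 to -0.82 in control and -0.57 to -0.17 at CNV d3. The groups did not overlap in this ratio, which rose by 0.85 on average from -1.18 ± 0.43 to -0.33 ± 0.14 (SD, n = 6 each). The ratio of S100a11 to S100a10, which lie 28.8 kb apart, rose by 2.16 from -2.97 ± 0.93 to -0.81 ± 0.91. The ratio of S100a13 to S100a4 fell from 7.37 ± 1.89 to 3.91 ± 0.71. For S100a4 and S100a6, 6.84 kb apart, the ratio was -1.09 ± 2.60 in control and -1.72 ± 0.60 at CNV d3, a gap smaller than the control spread.

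**Figure D4:**
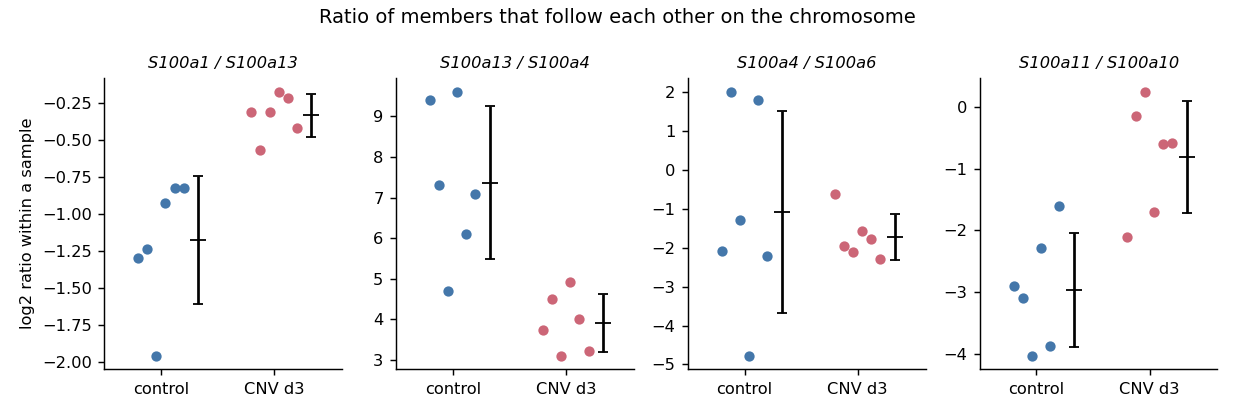
Each panel plots the log2 ratio of 2 members that follow each other on the chromosome in each of 6 control and 6 CNV d3 samples, with the mean ± SD as a bar and an axis of its own. The S100a1 to S100a13 ratio separates the groups, while the S100a4 to S100a6 ratio spreads widely in control samples.

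Among the CNV d3 samples S100a4 and S100a6 moved together with r = 0.90 (exact permutation p = 0.00833, adjusted p = 0.0917) and rho = 0.94 (exact permutation p = 0.0167, adjusted p = 0.183), over 11 relations computed. Without the 2 samples farthest from the median r was 0.60, so the relation rests in part on those samples. In control samples their r was 0.31 (exact permutation p = 0.558, adjusted p = 0.682) and their rho 0.20 (exact permutation p = 0.700, adjusted p = 0.963). Their control r was -0.31 without the 2 samples farthest from the median. None of the 11 relations, which also covered S100a10 with S100a11 and with Anxa2 and S100a8 with S100a9 and with the neutrophil markers, passed an adjusted p of 0.05. The r of S100a10 with Anxa2 was 0.59 at CNV d3 (exact permutation p = 0.221, adjusted p = 0.607) and -0.48 in control (exact permutation p = 0.331, adjusted p = 0.611).

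The genes most like each member were sought among 9713 genes with a mean of at least 100 normalized counts, by the correlation over 12 samples of deviations from the group means, given as a description with no test. S100a6 was most like Capns1, the small subunit of the calpains and itself an EF-hand protein, at r = 0.98, and then Ndufc2 and Rpl36a at 0.95 each. S100a1 was most like Zfp551 (0.93), Casp1 (0.88) and Rap1a (0.88). S100a13 was most like the mitochondrial genes mt-Nd4 (0.92) and mt-Cytb (0.90) and the translation factor gene Eif4a1 (0.90). S100a10 was most like Med24 (0.91), Dennd1c (0.87) and Mrpl2 (0.85). All points share their libraries and depth.

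Beyond the 8 members, 5 of 10 other S100 genes listed had a row, and 1 was called higher and 0 lower. By the same limma rule, 3.91% of all genes were called higher and 1.07% lower. S100b, a gene of astrocytes and Mueller glia whose protein binds RAGE, measured 0 to 7.94 normalized counts in control samples and 2.96, 36.8, 111, 6.92, 22.4 and 17.4 in CNV d3 replicates 1 to 6. Its log2 fold change was 3.49 ± 0.92 (SE), with an adjusted p of 0.0203 by limma and 0.0433 by edgeR. S100a16 measured 10.7 ± 16.6 in control and 19.8 ± 14.4 at CNV d3 (change 2.36, adjusted p = 0.207), S100g 7.08 ± 6.35 and 1.85 ± 2.88 (change -1.58, adjusted p = 0.259), and S100a2 and S100a3 were at 0 in all control samples with levels of 0.139 ± 0.341 and 0.298 ± 0.731 at CNV d3.

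Among 10 receptors that bind S100 proteins outside the cell, 2 were called higher and 0 lower by limma, against 3.91% and 1.07% of all genes. At any size of change, 6 had an adjusted p under 0.05. At an unadjusted limma p under 0.05, 4 were higher and 4 lower, against 16.3% and 8.9% of all genes. The fatty acid and S100A8/A9 receptor gene Cd36 rose from 44.0 to 143 normalized counts in control to 1695 to 3965 in CNV d3 samples, a log2 fold change of 5.03 ± 0.30 (SE) with an adjusted p of 1.04e-06 by limma. Alcam was called by limma (4.43 ± 1.198, adjusted p = 0.0231), yet not by edgeR (1.70, adjusted p = 0.331) or DESeq2 (1.69, adjusted p = 0.439), and its control replicate 3, at 231, lay above 5 of 6 CNV d3 samples. The limma call of Alcam held in 2 of the 12 fits that left out 1 sample, with adjusted p of up to 0.0889. The parts of the TLR4 receptor complex were lower, each by less than the threshold. Tlr4 changed by -0.59 (adjusted p = 0.00193 by limma), its cofactor Ly96 by -0.93 (adjusted p = 0.00133) and Cd14 by -0.79 (adjusted p = 0.00111), from 5347 ± 690, 1367 ± 261 and 19517 ± 778 normalized counts in control to 3552 ± 456, 713 ± 135 and 11534 ± 2820 at CNV d3. Nptn, which encodes neuroplastin, a receptor of S100A8, changed by -0.53 (adjusted p = 0.000415). Ager measured 0.537 ± 1.31 in control and 4.57 ± 4.71 at CNV d3 (change 1.66, adjusted p = 0.104). Bsg, which encodes basigin, a receptor of S100A9, was at 11757 ± 1178 and 12577 ± 799 and changed by 0.10 (adjusted p = 0.470). The median change of the 10 receptors was -0.06, against 0.15 over all genes.

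Of 14 intracellular partners, 4 were called higher and 0 lower by limma, against 3.91% and 1.07% of all genes. At an unadjusted limma p under 0.05, 10 were higher and 1 lower, against 16.3% and 8.9% of all genes. Their median change was 0.65, against 0.15 over all genes. The annexin gene Anxa2, whose protein pairs with S100A10, measured 290 to 553 normalized counts in control and 1083 to 2567 in CNV d3 samples, without overlap, with a log2 fold change of 2.18 ± 0.22 (SE) and an adjusted p of 2.54e-05 by limma. The change of S100a10 itself, at -0.32, did not pass the test. Anxa1, the partner of S100A11, measured 18.3, 44.5, 89.0, 0, 0 and 1.99 in control replicates 1 to 6 and 59.8 to 348 in CNV d3 samples (change 4.10 ± 1.08, adjusted p = 0.0202 by limma), a call that edgeR did not make (2.60, adjusted p = 0.0919) and that limma kept in 4 of the 12 fits that left out 1 sample. Ahnak, the large scaffold bound by S100A10 and annexin A2, measured at most 3.38 in control and 6.65, 54.4, 126, 9.52, 83.3 and 298 in CNV d3 replicates 1 to 6 (change 4.83 ± 0.97, adjusted p = 0.00374 by limma). Of the myosin heavy chains that S100A4 binds, Myh10 was called (3.54 ± 0.95, adjusted p = 0.0224 by limma, and in 4 of the 12 fits that left out 1 sample). Myh9, the more abundant, went from 2270 ± 548 to 6063 ± 1411 with a change of 1.43 ± 0.18 (adjusted p = 0.000123 by limma), just under the threshold. Cacybp, the calcyclin-binding protein gene, was at 1512 ± 120 and 1786 ± 119 (change 0.24, adjusted p = 0.117), and Trp53 at 2336 ± 377 and 1382 ± 145 (change -0.75, adjusted p = 0.000903). The cytoskeletal genes Actb and Capzb changed by 0.48 (adjusted p = 0.000972) and 0.66 (adjusted p = 0.000182).

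**Figure D5:**
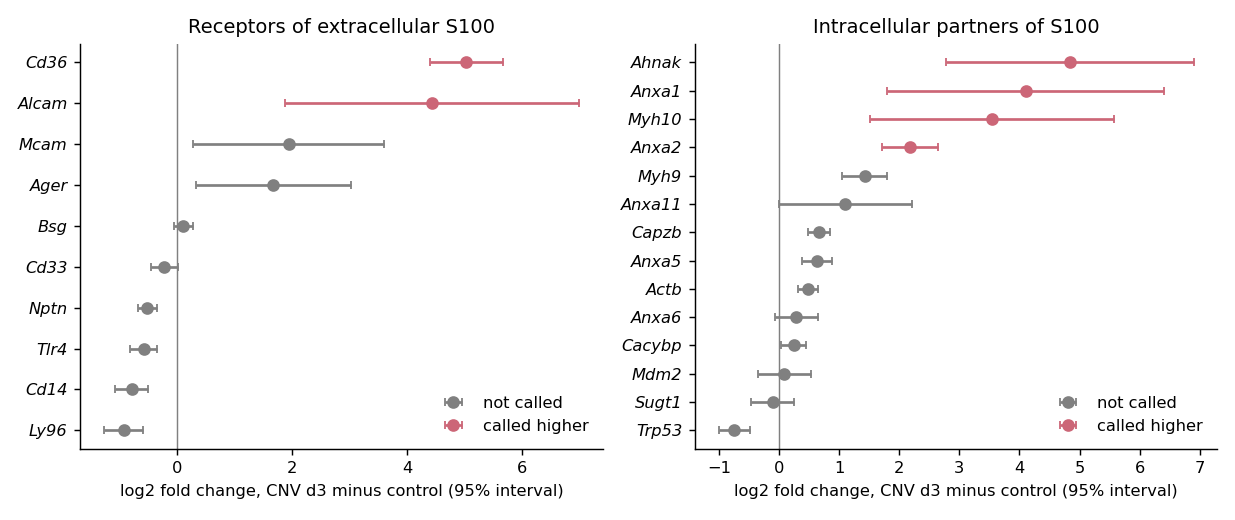
The log2 fold change at CNV d3 over control is drawn with its 95% interval for 10 receptor genes and 14 partner genes, colored where called by limma. Cd36 and Alcam are called among receptors and Tlr4, Cd14, Ly96 and Nptn lie below 0, while Ahnak, Anxa1, Myh10 and Anxa2 are called among partners.

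The plasminogen system, which S100A10 serves at the cell surface, held no gene called by limma, edgeR or DESeq2 among 5 measured of 6 listed. At an unadjusted limma p under 0.05, 2 were higher and 0 lower, against 16.3% and 8.9% of all genes. The plasminogen receptor gene Plgrkt went from 1034 ± 105 to 1610 ± 269 (change 0.63, adjusted p = 0.00466 by limma) and Eno1 from 5661 ± 497 to 11012 ± 1869 (change 0.95, adjusted p = 7.97e-05), while Plaur (0.02, adjusted p = 0.951) and Plau (0.61, adjusted p = 0.434) did not pass. None of 15 other calcium sensor genes was called by limma, edgeR or DESeq2. At an unadjusted limma p under 0.05, 8 were higher and 1 lower, against the same shares of all genes. At any size of change 6 had an adjusted p under 0.05, all of them higher, against 8.29% of all genes. The most abundant, Lcp1, changed by 0.10 (adjusted p = 0.403), Efhd2 by 0.39 (adjusted p = 0.00302) and Aif1, a microglia marker that encodes IBA1, by 0.04 (adjusted p = 0.776). The median change of the 15 sensor genes was 0.39, against 0.15 over all genes.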

How the data were processed

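RNA-seq libraries were made from amplified full-length cDNA and sequenced as single reads. Per the submitters' processing notes and the methods, reads were mapped with STAR 2.7.2b to GRCm38.p6 with Gencode annotation, counted with featureCounts 1.6.4 at default settings, without strand and without reads that fall in exons of several genes, and scaled with DESeq2 1.22.2, after quality control with FastQC 0.72. The deposited signal is the count of each gene divided by the size factor of its sample. All values were whole multiples of 1 read within 0.001, and reads were recovered from them. The labels list 19 entries for 12 merged samples, 7 of them in 2 parts that the authors had joined. The 4 columns of the authors' group means and comparison were not used.

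Here, limma 3.58.1 (lmFit, eBayes with trend, R 4.3.3) was fitted to log2(value + 1) over 27299 genes with 12 samples and no covariate, with Benjamini-Hochberg adjustment, and a gene was called above an absolute change of 1.5 at an adjusted p under 0.05. Single values were tested by two-sided exact permutation over all labellings of samples, levels by all sign flips and relations by all pairings. Alternatives were edgeR 4.0.16 and DESeq2 1.42.0 on recovered reads, pseudocounts of 0.5 and 5, a filter of at least 10 in at least 6 samples, TMM-scaled CPM, thinned reads, a replicate block, a threshold of 1 and leaving out each sample. Lengths were merged exons, or the longest transcript as an alternative, from Gencode M21, which matched 27238 genes by identifier. Tested on simulated data for this comparison, limma recovered 150 of 200 genes changed by a log2 fold change of 3 among 27299, with 5 false calls. On the same data edgeR recovered 169 with 10 false calls, and DESeq2 183 with 53. The changed genes were drawn above a minimum mean of reads that S100a8 and S100a9 do not reach, so these rates do not cover them. PCR reads without molecular identifiers are not independent molecules, so limits from reads cover counting error only.

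The text names all 8 members, the most abundant genes of each list (up to 4), called genes among other S100 genes, receptors and partners, and the 3 genes most alike for members with a mean of at least 100. Further list genes (Ager, Ly96, Myh9, Cacybp, Trp53, S100a16 and other S100 genes, Mpo, Ltf, Col1a1, Dkk3, the called monocyte and neutrophil markers) were named after their values were seen. The members and lists were chosen with earlier results of these data known.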

Additional observations from a re-analysis of the deposited data

Results flagged for a closer look

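In 15 groups of 6 samples with any spread, the gap between the extreme sample and its nearest neighbour was divided by the range of the group on the log2(normalized count + 1) scale. A sample counts as far from the others above Dixon's 95% critical value for 6 samples, and chance gives about 1 such group in 20. The ratio passed in 2 groups. For S100a10, CNV d3 replicate 6, at 344 normalized counts, had a ratio of 0.700. For S100a9, CNV d3 replicate 5 had a ratio of 1, which is 1 read against 0 in the other five samples.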

How the results depend on the processing

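Of 579 values recomputed under alternatives, 550 kept their side of the threshold or moved little, 13 moved, 3 passed a threshold and 13 lost it. None of the 579 reversed a call, but values that had not passed could change sign within the 550. The level of S100a6 over S100a4 in control went from 0.33 to -0.48 without control replicate 4. Levels with 1 sample left out were not tested and could only count among the 550. The ratios of members that follow each other on the chromosome are also among the 579. The number of members called higher was 3 under both pseudocounts, the filter, TMM scaling, DESeq2, thinned reads and the threshold of 1, and 2 under edgeR. Over the 12 fits that left out 1 sample it ranged from 0 to 3, with 1 without CNV d3 replicate 2, 5 or 6 and 0 without CNV d3 replicate 3, where S100a4, S100a6 and S100a11 kept changes of 3.26, 3.81 and 1.68. The number called lower stayed at 0. Neighbouring pairs that differed in the order of changes went from 0 to 1 with a pseudocount of 5, with thinned reads and over the fits without 1 sample (0 to 1). Each time the pair was S100a1 against S100a9, a gene with 1 read in all. With the replicate number as a replicate block, 2 members were called higher, with S100a11 at 1.84 and an adjusted p of 0.0543, S100a1 at 0.0548 and S100b at 0.0569. Same-numbered samples did not deviate together (correlations -0.01 to 0.05 over 13614 genes, 1 of 6 CNV d3 samples closest to its own number). No pairing by number was therefore seen, but such correlations cannot show that the samples were unpaired. Receptors called higher went from 2 to 1 by edgeR and DESeq2. With the longest transcript as the length, S100a11 over S100a10 at CNV d3 went from 0.43 to -0.39 on the log2 scale, neither past the threshold. Leaving out a sample of 6 cannot reach p = 0.05 in the sign-flip test of levels, and r over 5 samples was not computed. At these depths S100a8 and S100a9 rest on 40 reads and 1 read in all, and S100a4 on 39 control reads.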
